A study of Drosophila melanogaster with 12 samples.

Results

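The elements *copia* and _1731_ are the members of the Ty1/*copia* group of long terminal repeat (LTR) retrotransposons examined here, in heads of Drosophila melanogaster in which human TDP-43 (hTDP-43) was expressed in glia or in neurons. They were taken by name and were 2 of the 17075 features of the RNA-seq count table, which lists 123 transposons, 60 of them LTR elements. In the small RNA table they were 4 of 244 transposon rows, a sense and an antisense row for each element. RNA-seq covered 2 libraries from each of 3 genotypes, all aged 8–10 days post-eclosion and all carrying the hTDP-43 transgene: Repo > hTDP-43 (libraries S05 and S06), in which the pan-glial Repo-Gal4 driver expresses it, ELAV > hTDP-43 (S11 and S12), in which the pan-neuronal ELAV-Gal4 driver does, and hTDP-43 / + (S14 and S15), which has no Gal4 driver. Small RNA-seq covered 3 libraries of Repo > hTDP-43 (S22, S23 and S24) and 3 of Repo / + (S19, S20 and S21), which carry the driver but no hTDP-43 transgene. The labels give strain 2U and head tissue for every library, and the study backcrossed its driver and transgene lines into a shared w1118 (isoCJ1) background. The age of the small RNA flies is not given in the sources used here. Because the RNA-seq controls lack Gal4, an effect of the driver insertion and an effect of hTDP-43 cannot be told apart in the comparisons with them. The controls of the RNA-seq and of the small RNA experiment are different genotypes, so their changes are set side by side and not compared.

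Retrotransposons of this group copy themselves through an RNA intermediate. Their transcript encodes Gag, which assembles into virus-like particles, and Pol, which supplies protease, integrase and reverse transcriptase, and the group carries no envelope gene of the kind found in the *gypsy* endogenous retrovirus. The *copia* element is known for abundant RNA in fly cells and for a shorter spliced RNA that encodes Gag alone. The _1731_ element was found as an RNA that falls when Drosophila cell lines are treated with the steroid hormone 20-hydroxyecdysone. In somatic tissue such RNAs are cut by Dcr-2 into small interfering RNAs (siRNAs) loaded on AGO2, while in the gonads Piwi-interacting RNAs (piRNAs), made without Dicer and often antisense to the element, take this part.

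The RNA-seq libraries held between 22476024 and 41150009 counts, of which transposons took between 4.17% and 5.63%. The tested features of the 3 fits numbered between 12942 and 13699, and 120 transposons with all 60 LTR elements passed the filter on low counts in each. Both *copia* and _1731_ passed in every fit. The male-specific roX RNAs were high in all libraries, and no row of the marker lists for head cell types was at 0 in all 6. The female yolk protein genes, whose levels differed between genotypes, are given with the marker lists below. Levels are given as CPM, counts per 1000000 counts of the library, scaled with TMM factors, which align the bulk of the features across libraries. They were not divided by element length, so a level of *copia* cannot be compared with a level of _1731_. The libraries of a genotype are described as biological replicates, and the p-values rest on the spread between them.

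The levels of the 2 elements had different patterns over the genotypes, a difference that was not tested. The level of *copia* was higher with glial hTDP-43 than in the controls or with neuronal hTDP-43, whereas _1731_ had values near those of the controls with glial hTDP-43 and its lowest level with neuronal hTDP-43. The *copia* level was 4152 and 4511 CPM in S05 and S06 of Repo > hTDP-43. It was 1995 and 2179 CPM in S11 and S12 of ELAV > hTDP-43. It was 2742 and 1950.4 CPM in S14 and S15 of hTDP-43 / +. Both Repo > hTDP-43 libraries lay above the other 4, and the ELAV > hTDP-43 libraries lay between the controls, which themselves were apart. The group means were 4332 ± 253, 2087 ± 130 and 2346 ± 560 CPM (SD, n = 2 each). In share of the transposon counts of a library, *copia* made up 8.56% and 8.55% in Repo > hTDP-43, 4.57% and 4.70% with neuronal hTDP-43, and 5.48% and 4.34% in the controls.

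1731's level was 264 and 297 CPM in S05 and S06. It was 225 and 221 CPM in S11 and S12. It was 333 and 295 CPM in S14 and S15. The ELAV > hTDP-43 libraries were the lowest 2 of the 6, and the Repo > hTDP-43 libraries overlapped the controls, since S06 lay just above S15. The group means were 280 ± 22.9 CPM for Repo > hTDP-43, 223 ± 2.86 CPM for ELAV > hTDP-43 and 314 ± 26.9 CPM for hTDP-43 / + (SD, n = 2 each).

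**Figure D1:**
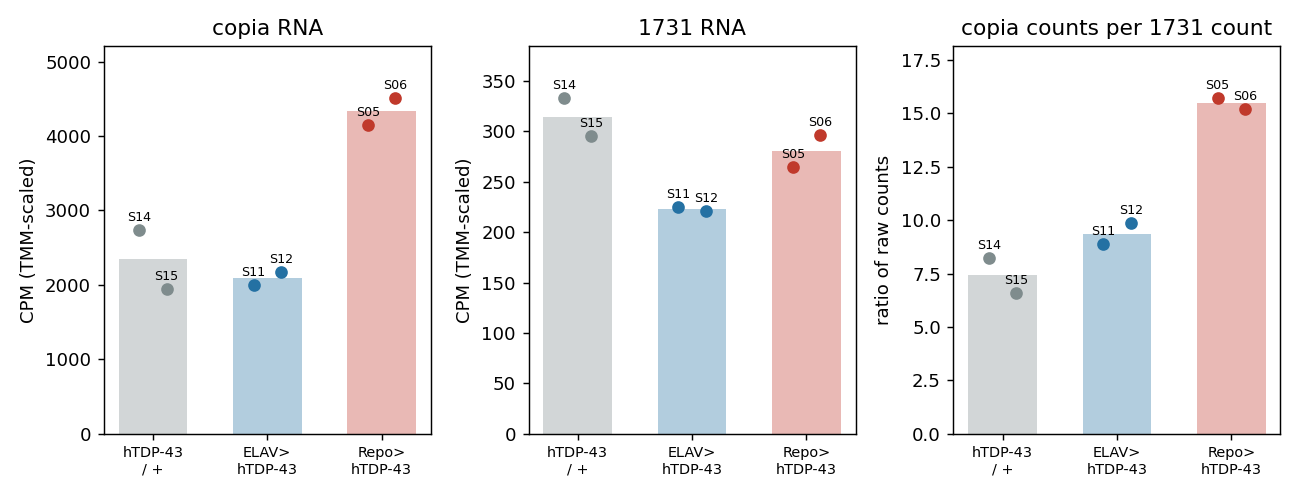
Levels of *copia* and _1731_ RNA in CPM with TMM scaling, and the number of *copia* counts per _1731_ count, in each of the 6 RNA-seq libraries (points, named) with the mean of each genotype (bars). Both Repo > hTDP-43 libraries lie above the other 4 for *copia* and for the ratio, and both ELAV > hTDP-43 libraries are the lowest for _1731_.

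In the comparison of Repo > hTDP-43 with hTDP-43 / +, which asks what glial hTDP-43 does, *copia* rose 1.86-fold. The log2 fold change was 0.90 (SE 0.17, 95% interval 0.50 to 1.30, adjusted p = 0.013, from the quasi-likelihood test of edgeR, adjusted by Benjamini-Hochberg over all features). This change ranked 6 of 120 transposons and 5 of 60 LTR elements from the highest, and the median over LTR elements was -0.05. The log2 fold change of _1731_ was -0.15 (SE 0.098, 95% interval -0.39 to 0.08, adjusted p = 0.288), so that a fall of this size or no change could not be told apart at 2 libraries a group. Of all features tested, 27.8% were called, 15.3% higher and 12.5% lower, and 68.9% had CPM ranges that did not overlap between the groups, so a call or a gap between groups is common in this comparison. Of the 60 LTR elements, 10 rose and 5 fell. These splits moved with the scaling. Over all features 2066 rose and 1695 fell with TMM, against 2626 and 869 with library size alone, which moved the median of all features to 0.17, and among LTR elements 16 then rose and 1 fell. The value of _1731_ was 0.01 with that scaling, and *copia* stayed a call. Leaving out S05 or S06 ended the *copia* call (log2 fold changes 0.95 and 0.83, adjusted p = 0.0826 and 0.0879). The spread in those fits came from the control pair, whose *copia* levels had a coefficient of variation of 23.9%, and calls over all features fell from 3761 to 552 and 1018. Of the fits with a library left out, _1731_ passed the test only without S15 (log2 fold change -0.23, adjusted p = 0.0353), where the control group was 1 library and 4376 features were called.

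Among other LTR elements with glial hTDP-43, 3S18 rose by a log2 fold change of 1.38, diver by 0.68, springer by 0.58 and *gypsy* by 0.47 (adjusted p between 0.00049 and 0.0286 by edgeR). The values of roo and aurora-element were 0.00 and -0.04. The change of *copia* was thus smaller than that of 3S18 and larger than those of diver, springer and *gypsy*, and that of _1731_ was near those of elements that did not pass the test.

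In the comparison of ELAV > hTDP-43 with hTDP-43 / +, which asks what neuronal hTDP-43 does, neither element passed the test. The log2 fold change of *copia* was -0.17 (SE 0.16, 95% interval -0.55 to 0.21, adjusted p = 0.861 by edgeR). That of _1731_ was -0.49 (SE 0.098, 95% interval -0.73 to -0.26, adjusted p = 0.0929 by edgeR over all features), or 0.710-fold. It ranked 115 of 120 transposons and 58 of 60 LTR elements from the highest, beside a median of -0.05 over LTR elements. Calls were rare here: 0.927% of features were called, 0.487% higher and 0.44% lower, while 37.2% had groups that did not overlap in CPM. Of the LTR elements, 5 rose and 2 fell. The call on _1731_ turned on the tool and on the libraries used. It passed with DESeq2 (-0.50, adjusted p = 0.00093), with all 6 libraries in the edgeR fit (-0.49, adjusted p = 0.0412), without S14 (-0.41, adjusted p = 0.00746) and without S15 (-0.58, adjusted p = 0.000731). In the last 2 fits the control group was 1 library, assumed to vary like the ELAV > hTDP-43 pair, whose _1731_ levels had a coefficient of variation of 1.28%. Calls over all features rose with them, from 120 to 1056 without S14 and to 382 without S15. For *copia* the sign turned without S14, to 0.10 (adjusted p = 0.676).

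**Figure D2:**
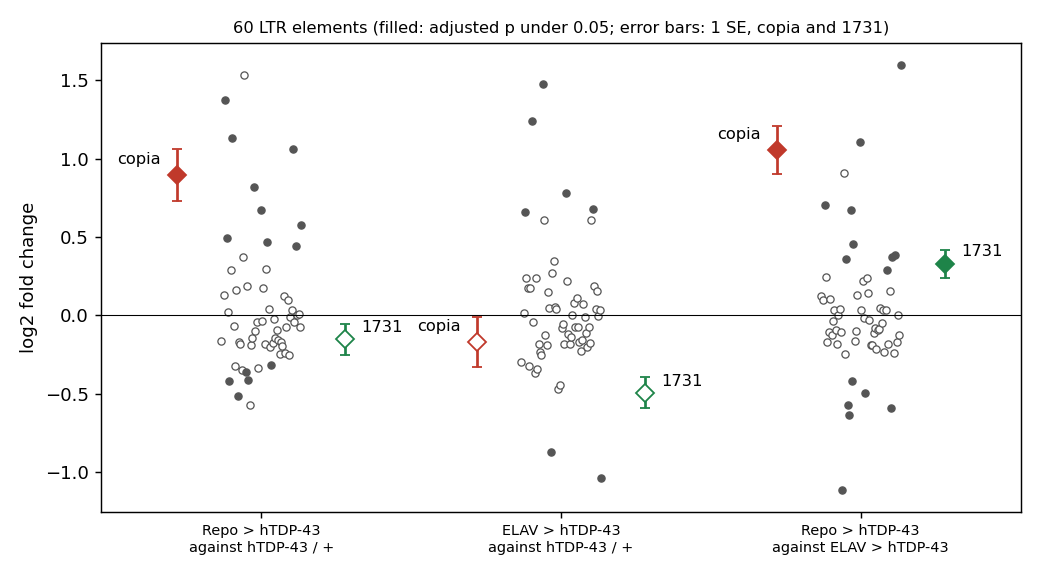
The log2 fold change of the 60 LTR elements in the 3 RNA-seq comparisons, with *copia* (red) and _1731_ (green) drawn as diamonds with 1 SE and the other elements as circles, filled where the adjusted p was under 0.05. *copia* lies among the highest elements in both comparisons with Repo > hTDP-43, at 0.90 and 1.05, and _1731_ lies near the lower end with ELAV > hTDP-43, at -0.49.

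The direct comparison of the drivers, fitted on all 6 libraries, does not depend on the controls for its direction, and both of its groups carry a Gal4 driver and hTDP-43. The Gal4 lines are different, so a difference between the lines and one in where hTDP-43 was expressed cannot be told apart. The paper could not formally exclude that transposon copy number varied between these lines. It thought this unlikely to be a major factor, because the strains had been backcrossed. It also found *gypsy* DNA and RNA to be comparable between the ELAV-Gal4 and Repo-Gal4 lines. It gives no such measurement for *copia* or _1731_. In the direct comparison *copia* was 2.08-fold higher in Repo > hTDP-43 than in ELAV > hTDP-43 (log2 difference 1.05, SE 0.15, 95% interval 0.70 to 1.41, adjusted p = 0.00288 by edgeR), which ranked 3 of 60 LTR elements. The _1731_ level was 1.26-fold higher (log2 difference 0.33, SE 0.090, 95% interval 0.12 to 0.54, adjusted p = 0.033 by edgeR) and ranked 11 of 60. In this comparison 24% of features were called, 10.7% higher and 13.3% lower in Repo > hTDP-43, and 71.2% had groups that did not overlap. Of the LTR elements, 11 were higher and 6 lower. Scaled by library size only, the counts became 15 and 4, and over all features the split went from 1470 higher and 1824 lower to 2009 and 1060. The *copia* call held without each of S05, S06, S11 and S12 in turn (1.0 to 1.13). The controls S14 and S15 were not left out singly in this comparison. The _1731_ call was lost without any of S05, S06, S11 and S12 (0.40, 0.26, 0.35 and 0.33, adjusted p between 0.0874 and 0.207).

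A ratio of counts within a library does not depend on how libraries are scaled. The number of *copia* counts per _1731_ count was 15.7 and 15.2 in Repo > hTDP-43. It was 8.87 and 9.86 in ELAV > hTDP-43 libraries, against 8.23 and 6.61 in hTDP-43 / +. The Repo > hTDP-43 libraries were above the rest and the ELAV > hTDP-43 libraries above the controls. On the log2 scale the group means differed by 1.07 for Repo > hTDP-43 against the controls, by 0.34 for ELAV > hTDP-43 against the controls and by 0.73 between the drivers. The ratio is given as values, with no test. Set against the counts of all other LTR elements, *copia* came to 14.5% and 14.3% in Repo > hTDP-43, 7.85% and 8.03% with neuronal hTDP-43, and 9.53% and 7.68% in the controls. The Repo > hTDP-43 libraries lay above the other 4 by this measure too. By the same measure _1731_ came to 0.811% and 0.830% in Repo > hTDP-43, 0.828% and 0.759% with neuronal hTDP-43, and 1.07% and 1.09% in the controls. By this measure _1731_ lay below the controls with either driver, and the driver groups overlapped. The counts it is set against differed too: LTR elements other than *copia* took 3.11% and 3.36% of all counts in Repo > hTDP-43, 2.49% and 2.65% with neuronal hTDP-43, and 2.80% and 2.36% in the controls. Against all other transposons _1731_ came to 0.548% and 0.565% in Repo > hTDP-43, 0.518% and 0.479% with neuronal hTDP-43, and 0.670% and 0.661% in the controls, and there the driver groups did not overlap.

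**Figure D3:**
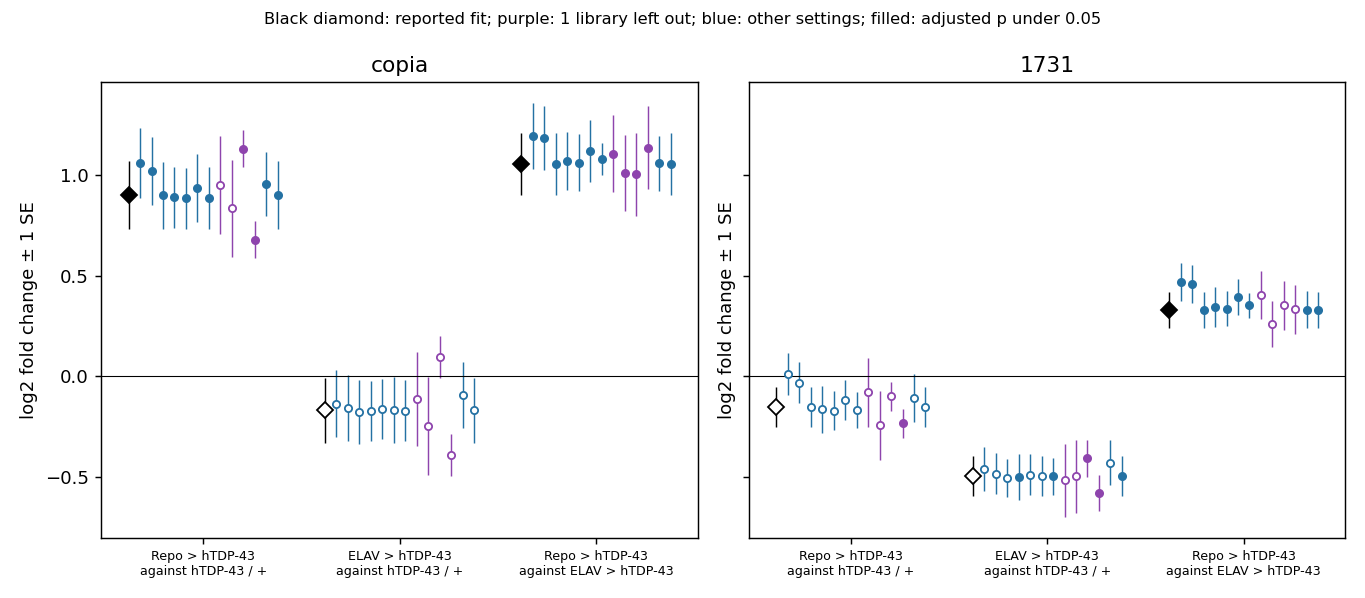
The log2 fold change of *copia* and _1731_ with 1 SE in the 3 RNA-seq comparisons under the reported fit (black diamond), other settings (blue) and leaving out 1 library (purple), filled where the adjusted p was under 0.05. *copia* stays between 0.68 and 1.13 with glial hTDP-43 when a library is left out, whereas the filled and open symbols of _1731_ alternate in the comparison of ELAV > hTDP-43 with the controls.

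The transposons whose levels ran most like those of each member over the 6 libraries were named by their Pearson correlation of log2 CPM among 119 transposons. These are descriptions over libraries of 3 genotypes and share the scaling of each library. The elements were picked from the same libraries that give their changes below. Those changes are therefore no separate support for the changes of *copia* or _1731_. For *copia* they were the LTR elements flea (r = 0.99, rho = 0.94), opus (r = 0.97, rho = 1), diver (r = 0.92, rho = 0.77) and Tabor (r = 0.91, rho = 0.83). In the direct comparison diver differed by 1.11, opus by 0.39, Tabor by 0.36 and flea by 0.22 on the log2 scale, beside 1.05 for *copia*. The flea difference did not pass the test (adjusted p = 0.0713 by edgeR). For _1731_ they were the LTR element Transpac (r = 0.97, rho = 0.89), the LINE Circe (r = 0.96, rho = 1), the LTR element invader6 (r = 0.93, rho = 0.94) and the LINE Juan (r = 0.91, rho = 0.83). With neuronal hTDP-43 against the controls, Transpac fell by 0.87 and Juan fell by 0.88 on the log2 scale (adjusted p = 0.00949 and 0.00909 by edgeR), beside -0.40 for Circe and -0.18 for invader6, which did not pass. No element was among the 4 most alike of both members.

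Small RNA was compared between Repo > hTDP-43 and Repo / + to ask what happened to the small RNAs of each strand. Because Repo / + lacks the hTDP-43 transgene, an effect of its insertion or parental line and one of hTDP-43 expression cannot be told apart. For *gypsy*, the paper reports raised RNA in flies with the undriven transgene. The table totals were between 31074082 and 37736599 counts, and levels are given as RPM, reads per 1000000 mapped reads. The mapped reads of each library were taken from the study's own list. The counts pool all read lengths, so siRNAs and piRNAs were not separated. Library S21 of Repo / + stood apart from its group. Its transposon rows differed from those of S20 by 0.69 and of S19 by 0.49 on average (absolute log2 difference), whereas S19 and S20 differed by 0.31 and the Repo > hTDP-43 libraries by 0.21 to 0.28. The log2 changes are therefore given with and without it, apart from the _1731_ ratio, given as a range with a library left out.

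Sense small RNA of *copia* was high in every Repo > hTDP-43 library. It was 23.5, 25.2 and 23.8 RPM in S22, S23 and S24, and 11.2, 8.14 and 20.6 RPM in S19, S20 and S21, from between 309 and 977 counts. The groups did not overlap, though S21 came close to the hTDP-43 libraries. The means were 24.2 ± 0.932 RPM and 13.3 ± 6.50 RPM (SD, n = 3 each). The log2 change was 0.86 (SE 0.30, 95% interval 0.19 to 1.54) and did not pass the test (adjusted p = 0.0661 by edgeR; exact permutation test two-sided p = 0.1, the smallest that 20 groupings allow). It passed without S21 (1.32, adjusted p = 2.07e-06), with TMM scaling (0.89, adjusted p = 0.0111) and with DESeq2 (0.86, adjusted p = 0.0321). In this comparison 22.7% of the 238 strand rows tested were called, and 37.4% had groups that did not overlap. Calls over all rows rose in those fits too, from 54 to 79 without S21, to 70 with TMM and to 61 with DESeq2. S21 was the control library nearest to the hTDP-43 libraries for this row.

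Antisense small RNA of *copia* was 10.6, 10.9 and 8.84 RPM in S22, S23 and S24, and 4.37, 3.35 and 11.4 RPM in S19, S20 and S21. Here S21 was the highest of all 6 libraries, so the groups overlapped. The means were 10.1 ± 1.09 RPM and 6.37 ± 4.38 RPM (SD, n = 3 each). The log2 change was 0.67 (SE 0.40, 95% interval -0.25 to 1.59, adjusted p = 0.297 by edgeR, exact permutation p = 0.4). Without S21 it was 1.38 (adjusted p = 6.32e-06 by edgeR), in the fit that called 79 of 238 rows.

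For _1731_ the small RNA of each strand was in the same range in both genotypes. Sense reads came to 5.40, 3.93 and 4.21 RPM in S22, S23 and S24, and to 4.20, 4.08 and 7.41 RPM in S19, S20 and S21. Antisense reads came to 4.17, 3.93 and 3.50 RPM with hTDP-43, and to 4.54, 3.56 and 7.06 RPM in Repo / +. The highest value of each strand was again that of S21, and the groups overlapped. The log2 changes were -0.21 (SE 0.28, 95% interval -0.85 to 0.42, adjusted p = 0.675 by edgeR, exact permutation p = 0.7) for sense and -0.38 (SE 0.27, 95% interval -1.01 to 0.24, adjusted p = 0.39 by edgeR, exact permutation p = 0.4) for antisense. Without S21 they were 0.12 and -0.07, so that the sign of the sense change turned.

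The antisense to sense ratio is taken within a library and does not depend on its depth. For *copia* it was 0.451, 0.430 and 0.371 in S22, S23 and S24, and 0.391, 0.411 and 0.553 in S19, S20 and S21. Sense reads were the larger part in all 6 libraries, and the groups overlapped. In percent, antisense reads made up between 27.1% (exact binomial 95% interval 24.7% to 29.6%) and 35.6% (32.7% to 38.5%) of *copia* small RNA, intervals that cover counting error only. The log2 change of the ratio was -0.11 (SE 0.16, 95% interval -0.50 to 0.28, adjusted p = 0.645 by edgeR with library as a block, exact permutation p = 0.7), and 0.05 without S21. For _1731_ the ratio was 0.771, 1 and 0.831 with hTDP-43, and 1.08, 0.871 and 0.952 in Repo / +, so both strands were about equal. Its log2 change was -0.16 (SE 0.16, 95% interval -0.55 to 0.22, adjusted p = 0.522 by edgeR with library as a block, exact permutation p = 0.4). With a library left out it ranged from -0.27 to -0.08. Of the 119 elements tested, 21% had a changed ratio, and the median log2 change over them was -0.11, close to that of both members.

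**Figure D4:**
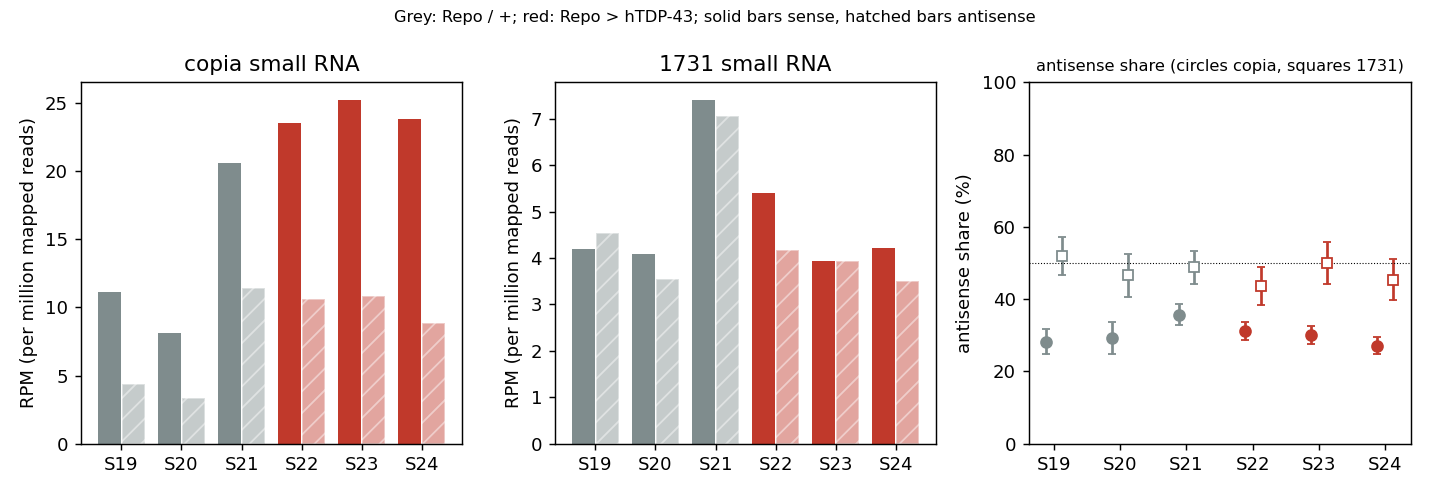
Sense (solid bars) and antisense (hatched bars) small RNA of *copia* and _1731_ in RPM in 3 Repo / + libraries (grey) and 3 Repo > hTDP-43 libraries (red), and the antisense share of each element in percent with its exact 95% binomial interval (circles *copia*, squares _1731_). The *copia* sense bars of the hTDP-43 libraries, at 23.5 to 25.2 RPM, are above all 3 grey ones, of which S21 is the highest at 20.6 RPM, and the *copia* antisense share stays between 27.1% and 35.6%.

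The antisense to sense ratio of both elements was below that of transposons as a whole, with _1731_ nearer the middle. Their antisense levels were mid-range. From the highest antisense level of 121 rows, *copia* ranked between 42 and 63 and _1731_ between 57 and 69 over the libraries. Over all transposon rows the antisense to sense ratio of a library was between 3.21 and 3.84, and the median over elements was between 0.998 and 1.46. From the lowest ratio of 119 elements, *copia* ranked between 11 and 18 and _1731_ between 34 and 53 over the 6 libraries. From the highest sense level of 123 rows, *copia* ranked between 14 and 36 over the libraries, at 17, 15 and 14 in S22, S23 and S24. The _1731_ sense row ranked between 49 and 61. The RNA of *copia* ranked 1 of 123 transposons by count in both S05 and S06. Only against this high RNA level of the same genotype did *copia* have little small RNA. In Repo > hTDP-43 its sense small RNA was 5.58, in RPM of small RNA for each 1000 CPM of RNA. This was rank 6 from the lowest of 119 elements, with a median of 19.5. Its antisense small RNA was 2.33, rank 2 with a median of 29.0. The values of _1731_ were 16.1 for sense and 13.8 for antisense, ranks 42 and 27. These ratios join libraries from separate experiments and have no test.

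The genes of the small RNA pathways that act on such elements were examined in the same RNA-seq fits. Of 9 siRNA and miRNA pathway genes, none passed the edgeR test in any of the 3 comparisons, nor with DESeq2. At an unadjusted p under 0.05 in edgeR there were 2 in the glial, 0 in the neuronal and 3 in the direct comparison, and 2 were called higher in the direct comparison with library size alone. Dcr-2, which cuts double-stranded RNA into siRNAs, was at 81.5 and 83.5 CPM in Repo > hTDP-43, 70.2 and 72.4 CPM with neuronal hTDP-43, and 82.9 and 75.6 CPM in the controls. With glial hTDP-43 its log2 fold change was 0.07, that of AGO2, the siRNA effector, 0.07, and that of r2d2, the partner of Dcr-2, -0.18 (adjusted p = 0.561, 0.554 and 0.324 by edgeR). Of 10 heterochromatin genes none passed in any comparison by edgeR or DESeq2, and 1 had an unadjusted p under 0.05 in edgeR, in the glial comparison. Other fits made some calls in these lists. With all 6 libraries in the edgeR fit, 2 of the siRNA list and 1 of the heterochromatin list fell in the glial comparison, where 2228 of all features then fell. Without S14 of the controls, 2 of each list fell in the glial comparison, beside 3495 of all features, and 1 of the siRNA list rose in the neuronal one, beside 443. Without S15, 1 of the siRNA list fell in the glial comparison, beside 2329. In the direct comparison with 4 libraries in the fit, 1 of the siRNA list was higher and 1 of each list was lower.

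Of 20 piRNA pathway genes, 19 were tested with glial hTDP-43, and 6 rose and 1 fell. All of those named were low. The level of piwi, the nuclear piRNA effector, was 2.64 and 2.84 CPM in Repo > hTDP-43, 1.42 and 1.03 CPM with neuronal hTDP-43, and 0.896 and 1.05 CPM in the controls. Its log2 fold change was 1.5 (adjusted p = 0.0166 by edgeR), that of krimp 2.26 and that of vret 1.76, both Tudor domain proteins of the pathway, and squ fell by 0.94 on the log2 scale. The zuc gene, which encodes the nuclease Zucchini, had 12 and 17 counts in Repo > hTDP-43 and 0 and 2 counts in the controls, and no fold is given for so few counts (adjusted p = 0.0259 by edgeR). With neuronal hTDP-43 none of 18 tested genes passed by edgeR or DESeq2, beside 4 at an unadjusted p under 0.05 in edgeR, and in the direct comparison 4 of 19 were higher in Repo > hTDP-43, namely aub, vret, piwi and krimp (log2 differences 1.82, 1.43, 1.15 and 1.06). The background shares above, 15.3% higher with glial hTDP-43 and 10.7% higher in the direct comparison, are the ones to read these counts against. The piwi and vret calls against the controls were lost without S05 or without S06, those of krimp and zuc without S05, and that of squ without any of S05, S06 and S15. The squ call was also lost with library size or upper quartile scaling, where 7 genes of the list rose and none fell. In the direct comparison the piwi, vret and krimp calls were lost without any of S05, S06, S11 and S12.

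Testis markers moved in the same direction. Of 16 testis markers tested, 12 rose with glial hTDP-43, beside 15.3% of all features, and 1 was higher in the direct comparison. With neuronal hTDP-43 none of 14 passed in edgeR, where 3 had an unadjusted p under 0.05, and 1 was higher with DESeq2. Their summed level over 17 rows was 104 and 67.7 CPM in Repo > hTDP-43, 49.0 and 34.2 CPM with neuronal hTDP-43, and 32.1 and 20.8 CPM in the controls. Hemocyte markers rose in 3 of 5 genes with glial hTDP-43, from a sum of 324 to 397 CPM in the controls to 577 and 661 CPM. Neuronal markers fell in 5 of 7, from a sum of 6577 to 7742 CPM to 5052 and 5294 CPM, and fat body markers fell in 3 of 3 tested, beside the 12.5% of all features that fell. The count of neuronal markers that fell was 2 of 7 with library size or upper quartile scaling, and 7 of 7 with DESeq2 or with all 6 libraries in the fit. Of the other lists with glial hTDP-43, 2 of 5 gut markers rose, and 2 of 7 glial markers rose and 2 fell. Also, 2 of 7 photoreceptor, 1 of 6 muscle, 1 of 3 ovary and 1 of 3 yolk protein genes fell. Beside these, 15.3% of all features were higher and 12.5% lower, and lists this short allow no close comparison with such shares. With library size or upper quartile scaling 3 gut markers rose, 1 photoreceptor gene fell and no muscle or yolk protein gene did, whereas 3 muscle genes fell with DESeq2 or with all 6 libraries. Yolk protein genes were highest with neuronal hTDP-43. Their sum was 65.8 and 69.6 CPM there, 35.8 and 33.9 CPM in Repo > hTDP-43, and 42.7 and 40.8 CPM in the controls. Against the controls 1 of 3 rose and 0 fell, beside 0.487% of all features higher. This was Yp1 (log2 fold change 2.02, adjusted p = 0.027 by edgeR). In the direct comparison 3 of 3 were lower in Repo > hTDP-43, beside 13.3% of all features. The part of these markers in the *copia*, _1731_ and piRNA gene values was not tested. In whole heads, fewer cells of a type and less RNA per cell cannot be told apart.

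The Arc genes encode capsid proteins of retrotransposon origin, related to the Gag of another LTR group, and Arc1 RNA is carried in such capsids at fly synapses. Arc1 was at 4243 and 4433 CPM in Repo > hTDP-43, 379.6 and 452 CPM with neuronal hTDP-43, and 493 and 527 CPM in the controls. It rose by a log2 fold change of 3.10 with glial hTDP-43 (SE 0.11, adjusted p = 0.000149 by edgeR), with a log2 difference of 3.38 between the drivers (adjusted p = 9.23e-06). Arc2 was low, at 7.61 and 6.38 CPM with glial hTDP-43 and between 1.86 and 2.64 CPM in the other 4 libraries, and rose by a log2 fold change of 1.84 (adjusted p = 0.00402 by edgeR). With neuronal hTDP-43 the log2 fold changes were -0.30 for Arc1 and 0.28 for Arc2, and neither passed. Like *copia*, both Arc genes were thus highest in both Repo > hTDP-43 libraries. Such gaps were common and do not link these genes to *copia*. Of all features, 68.9% did not overlap between groups in the glial comparison and 71.2% in the direct one.

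Of 13 ecdysone receptor and response genes, which belong to the hormone pathway known to lower _1731_ in cell lines, 4 fell and none rose with glial hTDP-43, beside the 12.5% of all features that fell. EcR, the hormone receptor, fell to 221 and 225 CPM, against 276 and 300.5 CPM in hTDP-43 / + libraries (log2 fold change -0.36, adjusted p = 0.0271 by edgeR). Its partner usp had a log2 fold change of -0.07 (adjusted p = 0.679), which turned positive with library size or upper quartile scaling. The nuclear receptor genes Hr46 and Eip78C fell by 0.55 and 0.46 and the reductase gene Eip71CD fell by 0.54 on the log2 scale. With library size or upper quartile scaling 2 of the 13 fell, the EcR and Eip71CD calls being lost. All 4 calls were also lost without S05 or without S06. With neuronal hTDP-43, where _1731_ was lowest, 1 gene fell, beside 0.44% of all features, and none rose by edgeR or DESeq2. This was Hr38, an orphan nuclear receptor gene that neuronal activity induces, at 89.0 and 82.1 CPM against 141 and 139 CPM (log2 fold change -0.71, adjusted p = 0.027 by edgeR), a call lost without S11 or without S12. In the direct comparison 1 was higher and 4 were lower in Repo > hTDP-43, beside 10.7% and 13.3% of all features. The EcR and Hr46 differences (-0.29 and -0.41) lost their calls with library size or upper quartile scaling and without any of S05, S06, S11 and S12, and EcR also with the stricter filter on low counts. The Eip71CD call was lost without S05 and the Eip78C call without S06.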

How the data were processed

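Heads were profiled by RNA-seq (6 libraries) and small RNA-seq (6 libraries), grouped by their labels. The RNA-seq values deposited by the authors are whole-number counts per RefSeq gene and FlyBase transposon, made with STAR on the dm3 genome and TEtranscripts, with reads that align in many places kept. The small RNA counts deposited by the authors are raw reads per feature and strand. Bowtie and bedtools are named in the submitters' processing notes. The sources used here do not give how multi-mapping reads were split, so reads common to related elements are uncertain. 0 columns were left unused.

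Counts were tested in R 4.3.3 with edgeR 4.0.16 (TMM, filterByExpr, quasi-likelihood test, Benjamini-Hochberg at 0.05), fitting 4 libraries for each driver against hTDP-43 / + and all 6 for the direct comparison. Small RNA strand rows with at least 10 counts were tested with the study's mapped reads as library sizes, and ratios as a strand by genotype interaction. DESeq2 1.42.0 was an alternative. The tests were tried on simulated data. The members, lists and tests were chosen with earlier results of these data known. Named genes were AGO2, Dcr-2, r2d2, piwi, Arc1, Arc2, EcR and usp, up to 3 called genes per list and direction with the largest change, the 4 transposons most like each member, and fixed LTR elements for comparison. No reference sequence was used.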

Additional observations from a re-analysis of the deposited data

Results flagged for a closer look

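Each value below was picked out because its change with glial hTDP-43 differed from its change with neuronal hTDP-43 in the direct edgeR test of the drivers, given as a log2 difference, positive where Repo > hTDP-43 was higher. The members differed by 1.05 for *copia* and 0.33 for _1731_. The capsid genes differed by 3.38 for Arc1 and 1.55 for Arc2. The piRNA pathway genes differed by 1.82 for aub, 1.43 for vret, 1.15 for piwi and 1.06 for krimp. The ecdysone list differed in both directions, by 0.72 for Hr38 and by -0.29 for EcR, -0.41 for Hr46, -0.51 for Eip78C and -0.83 for Eip71CD, of which the EcR and Hr46 calls were lost under most alternatives. In this comparison 24% of all features were called, so a call alone does not set a gene apart.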

How the results depend on the processing

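The members were recomputed with other scalings, filters, libraries and tools. For *copia* with glial hTDP-43 the log2 fold change was between 0.68 and 1.13 with a library left out, the call being lost without S05 (0.95) or S06 (0.83), and between the drivers it was 1.0 to 1.13. For *copia* with neuronal hTDP-43 this range was -0.39 to 0.10, the sign turning without S14 (0.10). For _1731_ the ranges were -0.24 to -0.08 with glial hTDP-43, with a call only without S15 (-0.23), -0.58 to -0.41 with neuronal hTDP-43, with calls only without S14 (-0.41) or S15 (-0.58), and 0.26 to 0.40 between the drivers, with no call without S05 (0.40), S06 (0.26), S11 (0.35) or S12 (0.33). With library size alone _1731_ turned to 0.01 with glial hTDP-43; this scaling moved the median of all features to 0.17. The fall of _1731_ with neuronal hTDP-43 passed the test with DESeq2 (-0.50), with all 6 libraries (-0.49) and with p-values adjusted over transposons alone (-0.49, adjusted p = 0.011). In place of the *copia* to _1731_ ratio, *copia* against all other LTR elements differed by 0.75, -0.11 and 0.86 and against all other transposons by 0.87, -0.078 and 0.94 for the glial, neuronal and direct comparisons. In small RNA, leaving out a library gave 0.61 to 1.32 for *copia* sense, 0.36 to 1.38 for *copia* antisense, -0.21 to 0.055 for the *copia* ratio, -0.36 to 0.12 for _1731_ sense, -0.58 to -0.07 for _1731_ antisense and -0.27 to -0.08 for the _1731_ ratio. The highest values of the *copia* rows and of _1731_ sense came without S21, where both *copia* strands passed the test and the sign of the *copia* ratio and of _1731_ sense turned. Without S21, 79 of 238 strand rows were called, against 54 in the reported fit. The *copia* sense row also passed with TMM (0.89) and DESeq2 (0.86). The usp value turned to 0.10 with library size, 0.054 with upper quartile scaling and 0.069 without S15. With TMM factors from transposons alone, an alternative chosen after seeing the data, *copia* had 0.95 with glial hTDP-43. Where a library was left out fewer samples were fitted; otherwise the cause was not tested. No paired analysis was possible because library names are not shared between genotypes. With 2 libraries a group, changes as small as those of _1731_ were called or not depending on the setting.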
